A study of Homo sapiens with 4 samples.

Results

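Teneurins, latrophilins, FLRT proteins and the netrin receptor UNC5D form a set of cell surface partners, and the binding of MEIS transcription factors around the genes that encode them was examined in human neural stem cells (hNSC). The set comprised 10 autosomal genes, the teneurins TENM2, TENM3 and TENM4, the latrophilins ADGRL1, ADGRL2 and ADGRL3, FLRT1, FLRT2, FLRT3 and UNC5D. They were chosen by name with earlier results of these data known, so comparisons with other genes and sites are descriptions only. They are 10 of the 19229 autosomal protein-coding genes in the annotation. A MEIS site was assigned to a gene when its summit lay in the gene body, the span of all annotated transcripts, or within 250 kb of it. By this rule 49 of the 5169 reproducible sites fell in the 10 windows, and no site fell in more than 1 of them.

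The data were 2 MEIS ChIP samples and 2 Input samples from untreated hNSC, a commercial culture (Gibco) grown in StemPro NSC SFM medium on Geltrex. Chromatin was precipitated with a mixture of an antibody to the MEIS1A and MEIS2A isoforms and one to MEIS1. A peak therefore does not tell which of the proteins was bound. Input, chromatin that was not precipitated, entered only through the authors' peak calling. The 2 replicates are samples of 1 commercial line, and the methods speak of 2 batches of cells handled side by side. Replicate 1 held 36796 peaks and replicate 2 held 47449, called at a loose threshold (p of 0.01). The authors compared both lists by the irreproducible discovery rate (IDR), which rests on how well peak ranks hold between replicates. A site is a place that they kept as reproducible. Read numbers are not part of these lists, so the depth behind each value is unknown. Gene expression was not analysed here, and a nearby site does not say which gene it acts on.

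Teneurins are large transmembrane proteins that bind latrophilins, adhesion G protein-coupled receptors, on the opposing cell. FLRT proteins carry leucine-rich repeats and bind latrophilins and also UNC5 receptors, so that the same partners can serve adhesion in one setting and repulsion in another. In the developing brain these contacts take part in neuronal migration, axon guidance and the formation of synapses. MEIS1 and MEIS2 are homeodomain factors that recognise the word TGACAG.

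Sites were found at 9 of the 10 genes, and UNC5D had none. At least 1 site was present in the same kind of window at 48.8% of all autosomal protein-coding genes and at 62.5% of the 1164 genes of like body length, meaning those among the 200 genes nearest in length to any of the 10. Long genes have wide windows, and of the 310 autosomal protein-coding genes over 500 kb, 84.2% had a site. Among the 6 teneurin, latrophilin and UNC5 genes of that size, 5 had a site, so the presence of a site was near the background for such genes. A site inside the gene body was present at 6 of the 10 genes, against 8.60% of all autosomal protein-coding genes. Over 500 kb it was present at 5 of the 6 members, against 71.6% of all such genes.

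The number of sites per gene set the members apart from one another. ADGRL2 held 12 sites, TENM2 held 11, ADGRL3 held 8, FLRT3 held 6 and TENM3 held 5. TENM4, ADGRL1 and FLRT1 each held 2 and FLRT2 held 1. From the strongest peaks of replicate 2 alone TENM3 held 3 sites, and from those of either replicate alone TENM4 held 1 and UNC5D also held 1. Of the 200 genes nearest in length to ADGRL2, 1 (0.5%) had as many sites or more, and their median was 2. The same count was 1 of 200 for FLRT3, with a median of 0, 6 of 200 (3.0%) for TENM2, with a median of 3, and 11 of 200 (5.5%) for ADGRL3, with a median of 2. TENM3 was matched by 32 of its 200 genes, ADGRL1 by 30 and FLRT1 by 58. TENM4 was matched by 125 and FLRT2 by 120, and both equalled the median of their like-length genes. In all, 7 of the 10 genes lay above that median. These are ranks and not tests, and the 10 genes were chosen with earlier results of these data known. The counts behind the ranks depend on the rule. With the canonical transcript as gene body ADGRL2 held 6 sites, and without the 250 kb extension FLRT3 held 0. All 6 sites of FLRT3 lay in an intron of MACROD2, within which FLRT3 lies. Neighbouring genes of like length can share sites, and for the longest gene, TENM2, the 200 genes ranged from 601 to 1900 kb.

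**Figure D1:**
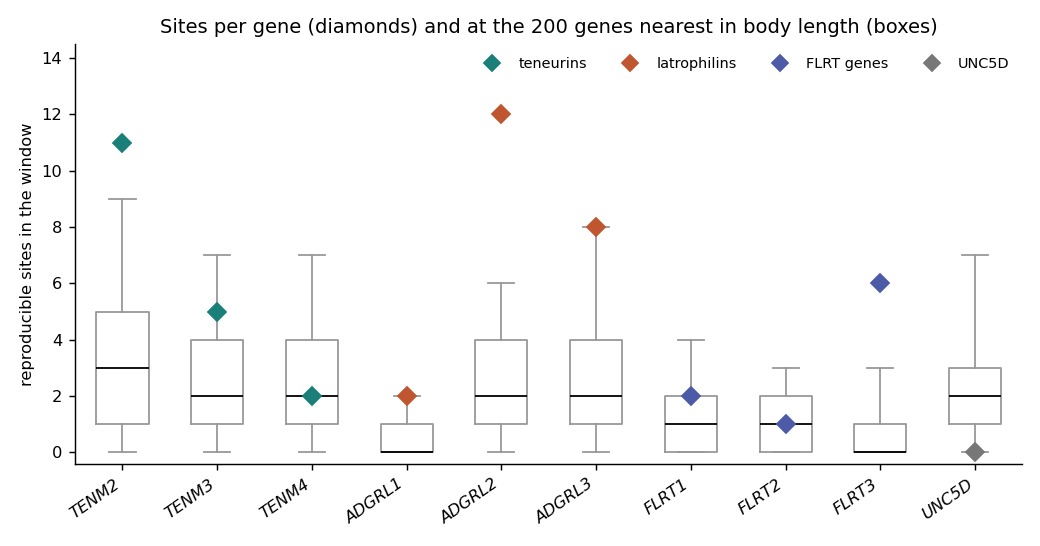
Reproducible sites in the window of each gene (diamonds, coloured by family), beside the 200 autosomal protein-coding genes nearest in body length (box, quartiles with the median, whiskers from the 5th to the 95th percentile). ADGRL2 with 12 sites, TENM2 with 11 and FLRT3 with 6 lie above the whiskers, and UNC5D with 0 lies at the bottom of its own.

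Per length, FLRT3 and ADGRL2 carried the densest windows, with 11.7 and 10.1 sites per Mb. TENM2 had 6.16, ADGRL3 had 5.81 and TENM3 had 4.31 sites per Mb, and TENM4 and FLRT2 had 1.55 and 1.60. The 10 windows together spanned 10.1 Mb and held 4.83 sites per Mb, against 1.76 over the autosomes. The sites did not sit at promoters in the main. Of the 49, 4 (8.16%) lay within 5 kb of the canonical transcription start site (TSS) of any protein-coding gene, against 8.43% of all sites, and 38 (77.6%) lay over 50 kb from one, against 67.1%. The median distance to the nearest canonical TSS was 207 kb for the 49 sites and 100 kb for all sites. Because the windows were drawn around long genes, a large distance is partly fixed by the choice of genes. The body of a set member contained 33 of the 49 sites (67.3%). The body of any protein-coding gene contained 42 of the 49 (85.7%), against 51.0% of all sites. Because the windows were drawn around gene bodies, these shares too are partly fixed by the rule. For 37 of the 49 (75.5%) the nearest canonical TSS of a protein-coding gene was that of the member itself. That share fell to 22.45% when genes of any type were counted.

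**Figure D2:**
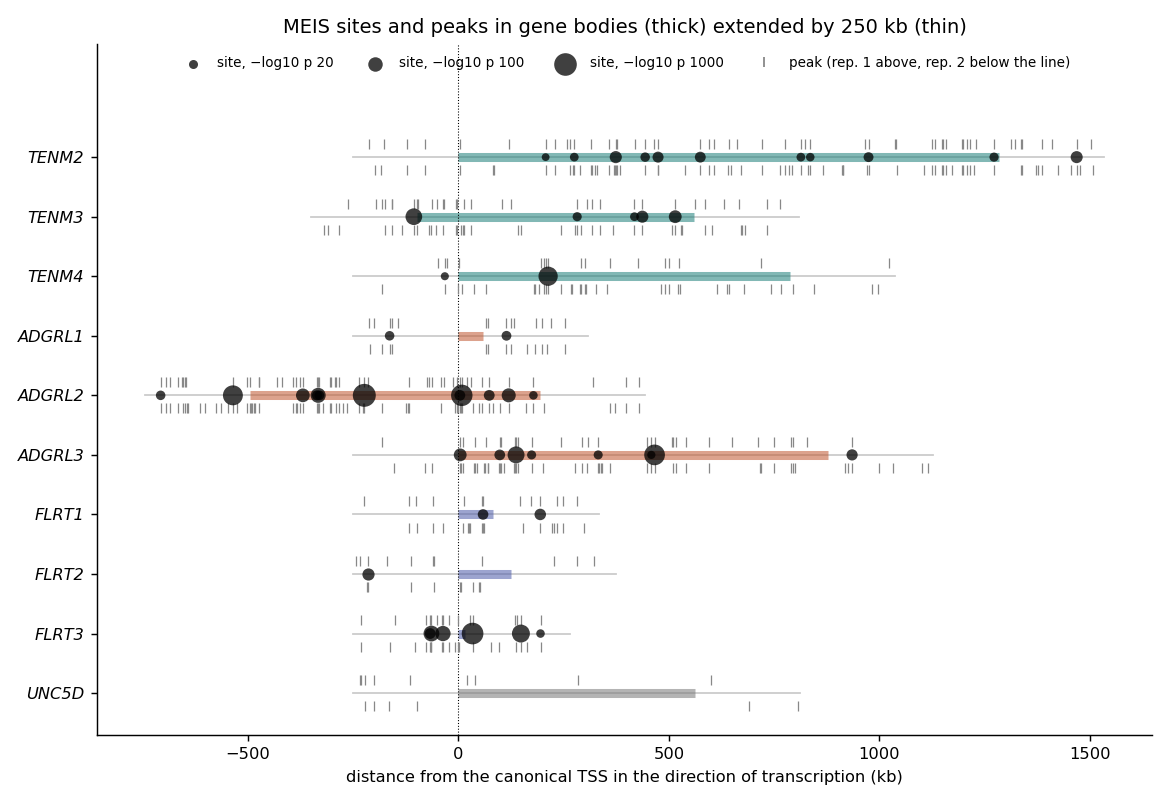
Position of the 49 sites (black circles, area rising with −log10 p) and of all peaks (ticks, replicate 1 above and replicate 2 below each line) relative to the canonical TSS of each gene, in kb in the direction of transcription. Thick bars are gene bodies and thin lines the 250 kb on each side. Sites of ADGRL2 spread far upstream of its canonical TSS, those of TENM2 and ADGRL3 through the gene body, and those of FLRT3 on both sides of a short gene.

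Sites are numbered here within each gene from the strongest down, by the −log10 p of the merged site, which at all 49 was the lower of the 2 replicate values. Each is described by the fold enrichment at its summit, relative to input, and by the −log10 p, taken from the strongest peak there in either replicate list. Over the 49 sites the fold enrichment ran from 3.85 to 88.9 in replicate 1 (median 6.54) and from 6.29 to 135 in replicate 2 (median 11.3). Positions are on GRCh37, and introns are numbered in the canonical transcript.

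TENM2 encodes a teneurin found at synapses, and 10 of its 11 sites lay in its introns, while none was among the strongest 10% of all sites. TENM2 site 1 (chr5:166779564-166780504, intron 3) had a fold enrichment of 8.74 in replicate 1 and 13.4 in replicate 2, with −log10 p of 50.6 and 53.0. TENM2 site 2 (chr5:167874731-167875925) lay 184 kb past the gene, in intron 17 of WWC1, and was nearest to the TSS of RARS1. Its fold enrichment was 7.34 and 16.0, with −log10 p of 49.3 and 65.2. These 2 sites were of like strength, but the second lay inside another gene. TENM2 sites 3 (chr5:166880058-166880850) and 4 (chr5:166980028-166981201), both in intron 4, had −log10 p of 36.5 and 34.8 in replicate 1 and of 45.4 and 49.7 in replicate 2. TENM2 site 5 (chr5:167379917-167380970, intron 6) lay 1.16 kb from the TSS of a shorter TENM2 transcript. Its −log10 p was higher in replicate 1 than in replicate 2 (48.9 and 26.2), while its fold was 7.45 and 8.06. Fold was higher in replicate 2 at all 49 sites. In the other 6 sites the −log10 p lay between 13.7 and 31.2 in replicate 1, with a range of 17.3 to 73.6 in replicate 2, where site 6 (23.0 and 73.6) was the highest of all TENM2 sites. By the value of the merged site, the strongest site at 55.5% of the genes of like length was as strong as that of TENM2 or stronger. The nearest canonical TSS of a protein-coding gene was that of TENM2 for 6 of the 11 sites. It was that of WWC1 for 4, among them site 5, and that of RARS1 for 1.

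TENM3 encodes a teneurin known for matching neurons in visual and hippocampal circuits, and its strongest site lay just ahead of the gene. TENM3 site 1 (chr4:183056765-183059552) was 6.46 kb before the first annotated TSS and 106 kb upstream of the canonical one. It had a fold enrichment of 23.3 in replicate 1 and 37.3 in replicate 2, with −log10 p of 279 and 188, rank 335 of all sites. TENM3 site 2 (chr4:183678985-183680376, intron 22) reached −log10 p of 103 and 61.9. TENM3 site 3 (chr4:183600569-183602266, intron 9) coincided with the TSS of a shorter TENM3 transcript, 0.049 kb away, and had −log10 p of 80.8 and 50.2. These 3 sites all had the higher −log10 p in replicate 1. TENM3 sites 4 (chr4:183446359-183447229, intron 3) and 5 (chr4:183582404-183583865, intron 6) were below the median strength of all sites, at ranks 3571 and 3961. Their −log10 p was 21.1 and 28.1 in replicate 1 and 20.7 and 18.6 in replicate 2. The intronic sites 2, 3 and 5 were nearer to the canonical TSS of DCTD, a neighbouring gene, than to that of TENM3.

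TENM4 encodes a teneurin with a role in myelination and held only 2 sites, of which one was strong. TENM4 site 1 (chr11:78938100-78939758, intron 2) had a fold enrichment of 35.8 and 60.5, with −log10 p of 390 and 479, rank 140 of all sites. A site as strong was found at 9.0% of its like-length genes. TENM4 site 2 (chr11:79183856-79185158) lay 32.2 kb upstream of the gene, with fold enrichments of 4.24 and 7.41 and −log10 p of 15.0 and 20.1. Both held TGACAG within 10 bp of the summit.

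The stretches of 121 bases centred on the summits of 3 teneurin sites show 3 different cases. The TENM4 site had 1 copy of TGACAG at its summit, TENM2 site 5 had 2 copies in opposite orientation, and the strongest TENM3 site had none. They are given on the plus strand of GRCh37, 5′ to 3′, and capitals mark TGACAG or its reverse complement CTGTCA.
TENM4 site 1, chr11:78938849-78938969: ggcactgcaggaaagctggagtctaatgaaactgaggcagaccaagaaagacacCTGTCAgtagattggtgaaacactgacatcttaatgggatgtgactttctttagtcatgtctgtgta
TENM2 site 5, chr5:167380478-167380598: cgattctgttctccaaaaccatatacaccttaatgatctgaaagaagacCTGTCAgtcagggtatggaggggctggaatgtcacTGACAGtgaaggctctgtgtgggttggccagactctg
TENM3 site 1, chr4:183058615-183058735: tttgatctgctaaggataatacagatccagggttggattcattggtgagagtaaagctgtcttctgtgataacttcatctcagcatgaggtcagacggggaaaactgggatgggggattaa
In TENM4 site 1 the word was centred 3.5 bp from the summit. The starts of the 2 copies in TENM2 site 5 were 35 bases apart.

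ADGRL1 encodes the latrophilin first known as a receptor of black widow venom, and neither of its 2 sites lay in the gene. ADGRL1 site 1 (chr19:14202290-14203161) was in the 3′ untranslated exon of PRKACA and 1.20 kb from the TSS of SAMD1. Its fold enrichment was 5.91 in replicate 1 and 9.63 in replicate 2, with −log10 p of 25.2 and 26.4. ADGRL1 site 2 (chr19:14479871-14480994) lay 163 kb upstream, 11.8 kb from the TSS of ADGRE5, another adhesion receptor gene, with fold enrichments of 5.42 and 10.5 and −log10 p of 23.4 and 31.1. Both sites were therefore nearer to other genes than to ADGRL1, and both were below the median strength of all sites.

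ADGRL2 encodes a latrophilin that helps to form synapses, and it held the most sites of the 10 genes by the rule used here and the one with the highest −log10 p. With the canonical transcript as gene body it held 6 sites, fewer than TENM2 (11) and ADGRL3 (8). Its annotated body reaches far upstream of the canonical TSS, and 7 of its 12 sites lay upstream of that TSS, 5 of them inside the body. ADGRL2 site 1 (chr1:82041978-82043741) lay 224 kb upstream of the canonical TSS and was number 18 of all 5169 sites. It had a fold enrichment of 88.9 in replicate 1 and 128 in replicate 2, with −log10 p of 1528 and 1095. ADGRL2 site 2 (chr1:82273905-82275933, intron 1) lay 8.03 kb downstream of that TSS and ranked 55, with fold enrichments of 48.9 and 92.5 and −log10 p of 739 and 715. ADGRL2 site 3 (chr1:81730250-81731601) lay 41.0 kb ahead of the gene body and ranked 105, with fold enrichments of 44.5 and 56.9 and −log10 p of 635 and 471. These 3 sites were at or above a fold of 44.5 in each replicate, several times the list medians of 6.38 and 11.5. A site as strong as the first was found at 1.0% of the like-length genes.

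Below these, the −log10 p of ADGRL2 site 4 (chr1:81932109-81933895) was 118 and 123 in the replicates, and that of site 5 (chr1:82385570-82386953, intron 3) was 87.7 and 114. In the other 7 sites it lay between 17.5 and 113 in replicate 1, with a range of 20.1 to 111 in replicate 2. Site 4 lay between sites 9 and 10, which were 2.71 kb and 2.88 kb from it, so that 3 sites followed each other within the gene body far upstream of the canonical TSS. Sites 2 and 8 formed a pair 4.57 kb apart in intron 1. ADGRL2 site 8 was the more uneven of that pair, since its −log10 p was 33.7 and 111. For all 12 sites the nearest canonical TSS of a protein-coding gene was that of ADGRL2, at 3.46 to 708 kb.

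The summits of the 4 strongest ADGRL2 sites are shown because they differ in what they hold. Capitals mark TGACAG or CTGTCA, in site 4 the whole composite of a PBX word with TGACAG, and in site 2, which has no TGACAG in 500 bp, the shorter TGTCA. PBX proteins are homeodomain partners of MEIS.
ADGRL2 site 1, chr1:82042970-82043090: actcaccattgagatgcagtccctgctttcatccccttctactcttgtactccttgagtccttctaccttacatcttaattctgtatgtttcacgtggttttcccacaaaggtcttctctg
ADGRL2 site 2, chr1:82274586-82274706: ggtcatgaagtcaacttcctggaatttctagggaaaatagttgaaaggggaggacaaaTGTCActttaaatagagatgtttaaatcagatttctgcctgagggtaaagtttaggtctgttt
ADGRL2 site 3, chr1:81730742-81730862: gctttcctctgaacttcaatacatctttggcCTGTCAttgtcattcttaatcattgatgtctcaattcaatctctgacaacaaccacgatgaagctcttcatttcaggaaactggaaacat
ADGRL2 site 4, chr1:81933356-81933476: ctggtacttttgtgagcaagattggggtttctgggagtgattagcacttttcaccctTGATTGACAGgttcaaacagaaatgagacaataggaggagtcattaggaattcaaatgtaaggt
The strongest site had no copy in this stretch, and its single TGACAG was centred 142.5 bp from the summit. Site 4 carried the only composite among the 49 sites, centred 1.5 bp from the summit.

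ADGRL3 encodes a latrophilin that binds teneurins and FLRT3, and 7 of its 8 sites lay in its introns. ADGRL3 site 1 (chr4:62530625-62532706, intron 5) ranked 77 of all sites, with fold enrichments of 38.1 in replicate 1 and 99.6 in replicate 2 and −log10 p of 583 and 745. ADGRL3 site 2 (chr4:62201930-62203576, intron 1) had fold enrichments of 17.5 and 46.5 and −log10 p of 199 and 258. Both lay over 100 kb from the canonical TSS, and both had the higher −log10 p in replicate 2, as did 28 of the 49 sites. ADGRL3 site 3 (chr4:62069804-62071165, intron 1) lay 4.27 kb downstream of the canonical TSS, with −log10 p of 61.8 and 78.0. ADGRL3 site 4 (chr4:63001058-63001936) lay 57.4 kb past the gene, with −log10 p of 42.6 and 38.4. ADGRL3 site 5 (chr4:62163664-62165622, intron 1) had −log10 p of 34.4 and 33.3. In the other 3 sites it lay between 15.6 and 20.2 in replicate 1, with a range of 24.7 to 32.8 in replicate 2. For all 8 sites the nearest canonical TSS of a protein-coding gene was that of ADGRL3. A site as strong as ADGRL3 site 1 was found at 5.0% of like-length genes.

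The 2 strongest ADGRL3 sites are set side by side as a pair with and without TGACAG. Capitals mark TGACAG, and in site 1, which has none in 500 bp, the shorter TGACA.
ADGRL3 site 1, chr4:62532088-62532208: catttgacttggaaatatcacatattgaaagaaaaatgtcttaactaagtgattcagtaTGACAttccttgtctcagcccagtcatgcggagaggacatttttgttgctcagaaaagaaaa
ADGRL3 site 2, chr4:62202977-62203097: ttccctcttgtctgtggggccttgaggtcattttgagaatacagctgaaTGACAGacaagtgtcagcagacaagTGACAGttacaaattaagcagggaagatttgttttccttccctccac
In site 2 both copies pointed the same way and their starts were 25 bases apart.

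FLRT1 and FLRT2 had few sites. FLRT1 site 1 (chr11:63997367-63998249) lay 111 kb past the gene and 0.123 kb from the TSS of DNAJC4. It was the one site of the 49 within 1 kb of the canonical TSS of a protein-coding gene. Its fold enrichment was 9.03 in replicate 1 and 13.2 in replicate 2, with −log10 p of 51.1 and 42.0. FLRT1 site 2 (chr11:63861308-63862521) lay in intron 1 of FLRT1 and also in an intron of MACROD1, with fold enrichments of 7.58 and 9.57 and −log10 p of 38.5 and 32.1. The single site of FLRT2 (chr14:85781626-85782608) lay 214 kb upstream, with fold enrichments of 7.72 and 15.6 and −log10 p of 51.3 and 72.2. It held no TGACAG in 500 bp.

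FLRT3 is a short gene of 14.6 kb that lies within an intron of MACROD2, and it held 6 sites although none was in its own body. All 6 were in intron 3 of MACROD2, and for 5 of them the nearest canonical TSS of a protein-coding gene was that of FLRT3. FLRT3 site 1 (chr20:14283774-14285736) lay 33.7 kb downstream of the FLRT3 TSS and ranked 51 of all sites, with fold enrichments of 40.0 in replicate 1 and 135 in replicate 2 and −log10 p of 763 and 1092. FLRT3 site 2 (chr20:14168933-14170670) lay 149 kb downstream, with fold enrichments of 29.3 and 43.3 and −log10 p of 318 and 269. FLRT3 sites 3 (chr20:14381652-14382824) and 4 (chr20:14354502-14355590) lay 64.1 kb and 36.7 kb upstream, with −log10 p of 145 and 151 in replicate 1 and of 185 and 126 in replicate 2. FLRT3 site 5 (chr20:14384975-14385693) was 3.05 kb from site 3 and weaker, with −log10 p of 36.5 and 33.3. The remaining site had a −log10 p of 17.4 and 17.6. Of the 10 genes, FLRT3 therefore combined the shortest body with one of the strongest sites, and 2.5% of its like-length genes had one as strong.

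Sites 3, 4 and 5 of FLRT3 held TGACAG close to the summit, while sites 1 and 2 held none in 500 bp. Capitals mark TGACAG or CTGTCA, and in site 1 the shorter TGTCA.
FLRT3 site 1, chr20:14284505-14284625: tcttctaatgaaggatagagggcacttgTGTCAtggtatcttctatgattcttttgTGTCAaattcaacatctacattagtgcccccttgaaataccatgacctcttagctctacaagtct
FLRT3 site 3, chr20:14382262-14382382: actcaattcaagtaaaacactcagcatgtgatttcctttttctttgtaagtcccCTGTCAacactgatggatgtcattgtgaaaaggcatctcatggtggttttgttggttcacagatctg
FLRT3 site 4, chr20:14354902-14355022: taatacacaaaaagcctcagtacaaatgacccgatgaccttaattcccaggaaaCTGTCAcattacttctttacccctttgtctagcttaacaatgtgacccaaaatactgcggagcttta
FLRT3 site 5, chr20:14385316-14385436: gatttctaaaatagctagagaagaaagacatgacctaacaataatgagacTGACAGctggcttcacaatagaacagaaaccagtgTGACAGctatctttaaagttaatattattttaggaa
In sites 3 and 4 the word was centred 3.5 bp from the summit and had the same orientation. The pair in site 5 had the spacing seen at TENM2 site 5, with starts 35 bases apart, but pointed one way.

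UNC5D, a receptor that responds to netrin and FLRT proteins in migrating cortical neurons, had no reproducible site although its body spans 561 kb. All 200 genes nearest in length had at least as many, by definition, and 19.0% of them also had none. Peaks were called there in each replicate, 9 in replicate 1 and 6 in replicate 2, of which 2 in each overlapped. The stronger of the overlapping places lay 221 kb upstream and held TGACAG, with fold enrichments of 3.77 and 11.0 and −log10 p of 11.6 and 34.0, and it did not enter the list. The strongest replicate 1 peak, with a −log10 p of 21.0, lay 232 kb upstream and had no partner in replicate 2.

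The strength of the member sites was compared with that of all sites. The median −log10 p of the merged site was 34.2 for the 49 sites and 29.3 for all 5169. The strongest 10% of all sites included 10 of the 49 (20.4%, 95% Wilson interval 11.5 to 33.6), against 9.98% by construction. These 10 comprised 3 sites of ADGRL2, 3 of FLRT3, 2 of ADGRL3 and 1 each of TENM3 and TENM4. Median −log10 p was 24.6 for the 18 teneurin sites, 34.0 for the 22 latrophilin sites and 51.3 for the 9 FLRT sites. Sites of 1 gene share their neighbourhood, and intervals here cover the number of sites alone.

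Between the replicates the order of the sites was similar. Spearman's rho of the −log10 p was 0.874 over the 49 sites and 0.779 over all sites. Points share the 2 libraries, and sites entered the list because their ranks held in both. The fold enrichment was higher in replicate 2 at 49 of 49 sites and at 97.4% of all sites, with a median ratio of 1.68 and 1.80. By −log10 p, 28 of the 49 sites (and 64.2% of all) were higher in replicate 2. Folds from the 2 lists are therefore not directly comparable, and the cause of the shift was not tested.

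**Figure D3:**
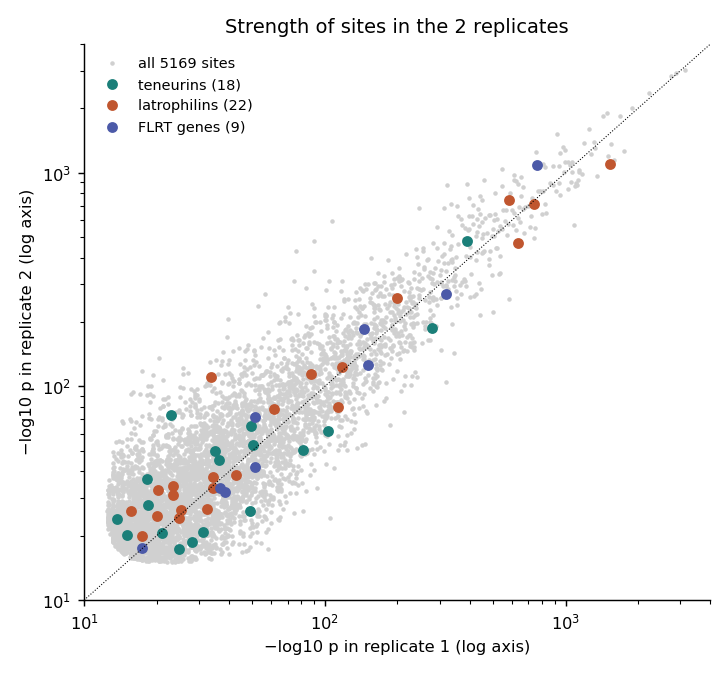
The −log10 p of each site in replicate 1 and replicate 2 (log axes), for all 5169 sites (grey) and the 49 member sites (coloured by family), with the line of equal values dotted. Member sites follow the diagonal up to ADGRL2 site 1, at 1528 and 1095, while the highest values of the list are 3132 and 3008.

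Most peaks in the windows lay below the reproducible list. Replicate 1 had 243 peaks in the 10 windows, of which 147 (60.5%) overlapped a replicate 2 peak, against 49.0% over the whole list. Replicate 2 had 328 peaks there, of which 144 (43.9%) overlapped a replicate 1 peak, against 38.0%. Each list contributed 49 peaks to the reproducible sites, while 98 peaks of replicate 1 and 95 of replicate 2 were present in both replicates but outside the list. By gene, the overlapping share in replicate 1 ran from 22.2% at UNC5D to 76.7% at ADGRL3, and in replicate 2 from 22.2% at TENM4 to 61.5% at ADGRL1.

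All peaks, reproducible or not, were counted in the same windows. TENM2 had 52 peaks in replicate 1 and 71 in replicate 2, against medians of 18 and 25 at its like-length genes, and 0.5% and 0 of these had as many. ADGRL2 had 49 and 65, against medians of 16 and 21.5, and none of the 200 had as many in either replicate. ADGRL3 had 30 and 51, and TENM3 had 32 and 39. FLRT3 had 16 and 20, and 9.0% and 8.0% of its like-length genes had as many, a less extreme rank than by its sites. TENM4 differed between the replicates, with 17 peaks in replicate 1 and 36 in replicate 2, of which 8 overlapped. UNC5D was below its like-length medians of 14 and 19 in both.

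**Figure D4:**
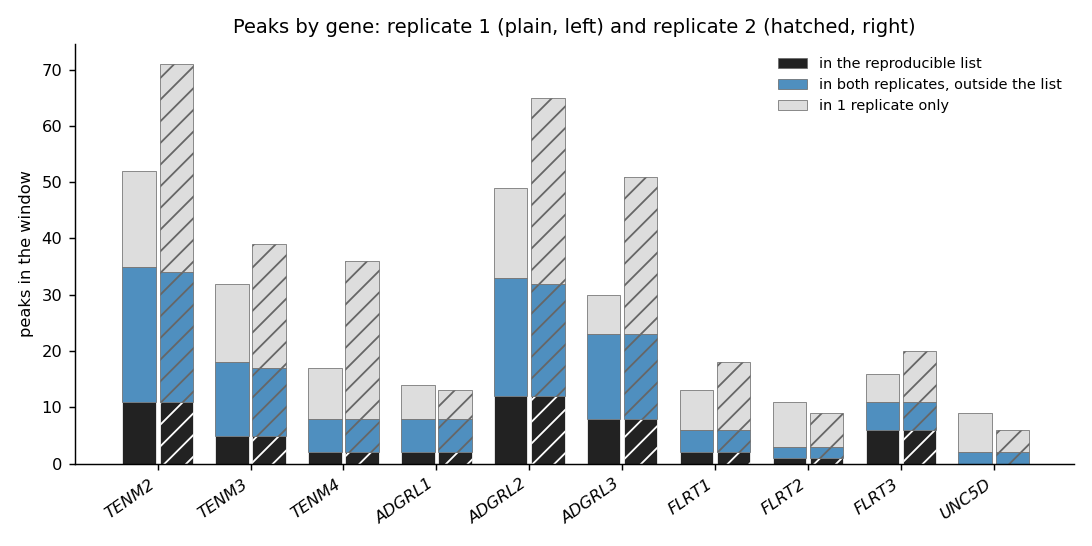
Peaks in each window by gene, replicate 1 (plain bar) beside replicate 2 (hatched bar), split into peaks in the reproducible list (black), peaks in both replicates outside it (blue) and peaks of 1 replicate only (grey). TENM2 and ADGRL2 have the tallest bars in both replicates, and UNC5D, with 9 and 6 peaks, has none in the list.

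At the promoters of these genes most peaks were weak. A peak of each replicate within 1 kb of a TSS of any own transcript was present at 4 of the 10 genes, TENM2, TENM3, ADGRL2 and FLRT3, against 14.7% of autosomal protein-coding genes. Genes with many transcripts have more TSS, and this was not matched. At FLRT3 the peaks lay 118 bp and 75 bp from the canonical TSS in replicate 1 and 2, with −log10 p of 11.4 and 10.4. At ADGRL2 the peaks at the first TSS of the gene had −log10 p of 18.8 and 9.13. Neither entered the list. The promoter peaks that did were ADGRL2 site 12 and TENM3 site 3, each within 1 kb of the TSS of a shorter transcript. TENM4 had a promoter peak in replicate 1 only and FLRT2 in replicate 2 only, while ADGRL1, ADGRL3, FLRT1 and UNC5D had none.

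The words held by the sites were counted on both strands in 500 bp centred on each summit. TGACAG was present at 25 of the 49 sites (51.0%, 95% Wilson interval 37.5 to 64.4), against 58.3% of all sites. It lay within 50 bp of the summit at 13 (26.5%, interval 16.2 to 40.3), against 39.5%. By family, TGACAG was held by 8 of 18 teneurin, 12 of 22 latrophilin and 5 of 9 FLRT sites. Of the 10 member sites among the strongest 10%, 5 held it, against 59.5% of all sites of that strength. The word was thus absent from 500 bp at the other 5, among them ADGRL2 site 2, ADGRL3 site 1 and FLRT3 site 1.

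The PBX-MEIS composite, which contains TGACAG, was present at 1 of the 49 sites (2.04%), against 4.93% of all sites. Words of other factors were GGAATG for TEAD, ACAAAG or ACAATG for SOX, TAATTA for LHX and TGANTCA for AP-1. SOX words were present at 40 of the 49 sites (81.6%, interval 68.6 to 90.0), against 71.0% of all sites. TEAD words were present at 12 (24.5%, interval 14.6 to 38.1), against 38.2%, and at none of the 9 FLRT sites. LHX words (18.4% and 18.2%) and AP-1 words (22.4% and 19.2%) had like shares in the windows and overall. Median GC content in these 500 bp was 39.0% at the member sites and 42.0% at all sites, and its part in the shares of these words was not tested.

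**Figure D5:**
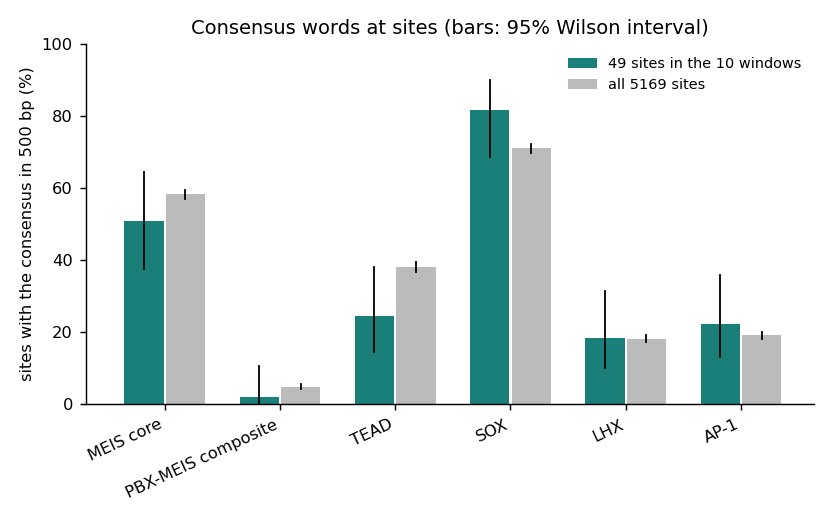
Share of sites with each word in 500 bp around the summit, for the 49 member sites (green) and all 5169 sites (grey), with 95% Wilson intervals as lines. The intervals of the member sites are wide, and for TGACAG (51.0% and 58.3%) the interval of the 49 sites includes the share over all sites.

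After the sequences had been read, the shorter word TGACA, which TGACAG contains, was also searched within 60 bp of the summits. It was present at 38 of the 49 sites (77.6%) and at 72.8% of all sites. Among sites without TGACAG in 500 bp, it was present at 17 of 24 member sites (70.8%, interval 50.8 to 85.1) and at 54.9% of 2157 sites overall. A short word is found often by its length alone, and its presence does not show that it was bound.

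Sites also lay near each other in places. Of the 49, 9 (18.4%, interval 9.98 to 31.4) had the next site within 10 kb, against 11.5% of all sites. They were 3 neighbours and a pair at ADGRL2, a pair 7.67 kb apart at ADGRL3 and a pair at FLRT3.

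Other genes of the same adhesion system were counted by the same rule. Of the 5 relatives, UNC5C held 6 sites, ADGRL4 held 2 and TENM1, on the X chromosome, held 1, while the netrin receptor genes UNC5A and UNC5B held none. A site was thus present at 3 of the 5, beside the 48.8% of all autosomal protein-coding genes and the 62.5% of those of like length to the set. As many sites were found at 6.5% of the genes nearest in length to UNC5C and at 47.5% of those nearest to ADGRL4. The 6 genes of further partners described here each had at least 1 site. Among these NRXN3 and NRXN2, whose proteins also bind latrophilins, held 5 and 1, and the netrin receptor gene DCC held 5. CNTN6, which encodes a contactin, held 2, and FGFR1, whose product binds FLRT proteins, and the netrin gene NTN1 held 1 each. These counts were not unusual for genes of their length, since as many sites were found at 26.5% (NRXN3 and DCC) to 68.5% (NTN1) of the 200 genes nearest in length.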

How the data were processed

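MEIS ChIP was measured in 2 samples of untreated hNSC beside 2 Input samples, grouped by title. Reads were trimmed with cutadapt 1.16, mapped to GRCh37 with Bowtie2 2.3.0, filtered by mapping quality with SAMtools 1.2 and freed of duplicates with Picard 2.15.0, so repeats can be missed. The authors called peaks in each replicate against input with MACS2 at a p-value of 0.01 (version not given in the sources used here) and ran IDR on both lists. The deposited replicate lists give fold enrichment over input, a linear ratio, with −log10 p and −log10 q. The deposited site list gives for each merged site a −log10 p, a scaled score and the −log10 (log10 scale) of its IDR, and 8 further per-replicate columns were not used. A score of 1000 is a ceiling, so IDR limits were set on the −log10 IDR.

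Annotation was GENCODE 44 lifted to GRCh37, with canonical transcripts as tagged there. Like-length genes were the 200 autosomal protein-coding genes nearest in body length. Overlap needed 1 bp. Sequences were read from GRCh37. Functions were checked on simulated data. Work used Python 3.11.15, pandas 2.3.3, NumPy 2.4.6, SciPy 1.17.1, pysam 0.24.0 and matplotlib 3.10.9.

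The wash protocol of each replicate is not given in the sources used here. No groups were compared, so no test was run, and Wilson 95% intervals cover the number of sites only. Up to 5 sites were described per gene, strongest first. Neighbours were named where their TSS was nearest to a site, and PRKACA and MACROD1, which contain a summit, were named after the values were seen. One gene of the partner list is not reported here. The genes and lists were chosen with earlier results of these data known. Alternatives changed the window, the annotation, the IDR limit, peak strength, overlap, word window and replicates.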

Additional observations from a re-analysis of the deposited data

How the results depend on the processing

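Of 62 alternative values of the main results, 52 were counted as the same and 10 as moved. The tolerance for counts was wide. Totals of 33 and 66 sites in place of 49 counted as the same, as did 6 genes with a site in place of 9. The share of sites nearest to the TSS of a member fell to 22.45% when genes of any type were counted. The share with TGACAG was 36.73% in windows of 200 bp, and 77.55% held TGACA within 60 bp, an alternative chosen after seeing the data. Without the 250 kb extension the windows held 142 peaks of replicate 1 and 211 of replicate 2, and with a −log10 p of at least 5 they held 140 and 193, of which 80.71% and 58.03% were shared. Requiring a share of 0.5 of both peaks to overlap gave 52.67% for replicate 1.

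The number of sites was 33 without the extension, 42 at 100 kb and 66 at 500 kb. An IDR limit of 0.001 also left 33. Using the strongest peaks of 1 replicate alone gave 46 sites without replicate 1 and 52 without replicate 2, and UNC5D and TENM4 then had 1 site in either case, while TENM3 had 3 without replicate 1. Without the extension, ADGRL1, FLRT2 and FLRT3 had 0 sites. With the canonical transcript as gene body, ADGRL2 held 6 sites in place of 12. At the stricter IDR, TENM2 held 6, ADGRL3 held 5 and ADGRL1 held 0. No paired analysis was possible because no value was compared between groups. The cause of these shifts was not tested beyond the changed setting itself. Unknown depth limits every count, and a gene without a site may have binding below these thresholds.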
